A study of Mus musculus with 26 samples.

Results

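Six4, Eya1, Mef2a, Mef2c, Mef2d, Tead4 and Vgll2 are transcription factors and cofactors of skeletal muscle. They were taken by gene symbol from a pair of deposited FPKM tables (fragment counts corrected for gene length and library size), as 7 of 53465 genes listed for regenerating muscle and 7 of 55487 genes listed for C2C12 cells. The study asked how Mettl3, which writes the m6A mark on RNA, acts in muscle repair and in myoblast differentiation. In the first table, tibialis anterior (TA) muscle of male C57BL/6J mice was taken on days 0, 1, 3, 5 and 10 of a cardiotoxin (CTX) series, with 2 libraries a day. CTX is a venom toxin that destroys muscle fibres, and the sources used here name both a pre-injury state and saline as the reference, so the treatment of the day 0 muscle is not settled. The second holds C2C12 cells, a mouse myoblast line, either labelled control or carrying a Mettl3 knockdown construct. They were taken in growth medium (GM, labelled day 0) or on day 3 in differentiation medium with horse serum (DM3), with 2 libraries in each of 4 groups.

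The knockdown vector drives its guides from the hU6 promoter and the repressor dCas9-KRAB from the hUbC promoter, and is aimed at the Mettl3 promoter, with puromycin selection. The deposited design text calls these cells knockout derivatives and the control cells wildtype. Whether the control cells carried a vector or went through puromycin selection is not given in the sources used here. Nothing in the labels says that the 2 libraries of a group came from separate animals or cultures, so each p measures the spread between these libraries only.

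Six4 is a homeodomain factor that binds MEF3 sites in muscle genes and works with EYA cofactors, which carry the activating function. MEF2 proteins are MADS-box factors that bind AT-rich sites and act with the myogenic factors MyoD and myogenin, and histone deacetylases such as HDAC4 hold them back. TEAD proteins bind MCAT sites and depend on a partner, either YAP and TAZ of the Hippo pathway or a VGLL cofactor, and Vgll2 is the VGLL gene known for its expression in skeletal muscle.

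Depth was read from the steps in low FPKM values. It came to between 14170000 and 18820000 reads on genes in the 10 CTX libraries and between 14230000 and 29570000 in the 8 C2C12 libraries. In each C2C12 group, replicate 1 was deeper than replicate 2. The reads were 29190000 against 14230000 in control GM and 25920000 against 16380000 in control DM3. In knockdown cells they were 29570000 against 18900000 in GM and 25170000 against 15090000 on DM3. Depth and replicate number thus cannot be told apart in C2C12. Xist, the RNA of the inactive X chromosome of females, stood at 5.77 to 10.0 FPKM in 5 CTX libraries (both of day 0, both of day 10 and day 3 replicate 2) and at 0.0170 to 0.152 in the other 5, although the methods name male mice. Day 0 against day 1 or day 5 therefore cannot be told apart from that split. Mettl3 stood at 4.68 to 5.65 FPKM in the 4 control C2C12 libraries and at 0.0805 to 0.331 in the 4 knockdown libraries (log2 fold change -4.56, SE 0.40, adjusted p = 0.0187 on DM3; -4.10, SE 0.40, adjusted p = 0.188 in GM, limma), and at 3.59 to 4.97 in muscle. The myofibre markers were present in muscle on every day, with a summed level of 57489 to 64570 FPKM on day 0 and 15573 to 19493 on day 3, where 8 of 8 fell. The 6 macrophage markers summed to 12.6 to 22.4 FPKM on day 0 and 336 to 347 on day 3, where 6 of 6 rose. The GM libraries of C2C12 stood apart by replicate, with a summed myofibre marker level of 159 and 25.4 FPKM in control replicates 1 and 2 and of 110 and 7.09 in the knockdown.

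In muscle, day 3 was the day on which most members moved. Tead4 and Mef2a rose, Vgll2, Mef2c and Eya1 fell, and Mef2d and Six4 did not pass the test. These 5 calls of 7 stand beside 48.8% of all 16753 genes tested in this comparison, so the share called is not a result about the members. The median log2 fold change of the 7 members was -0.43, and that of all genes tested was 0.01. Every member passed the filter of 0.5 FPKM in at least 2 libraries, and fold changes come from limma on log2(FPKM + 0.1), which understates changes of low genes. In such whole muscle, fewer cells of a type and less RNA per cell cannot be told apart.

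**Figure D1:**
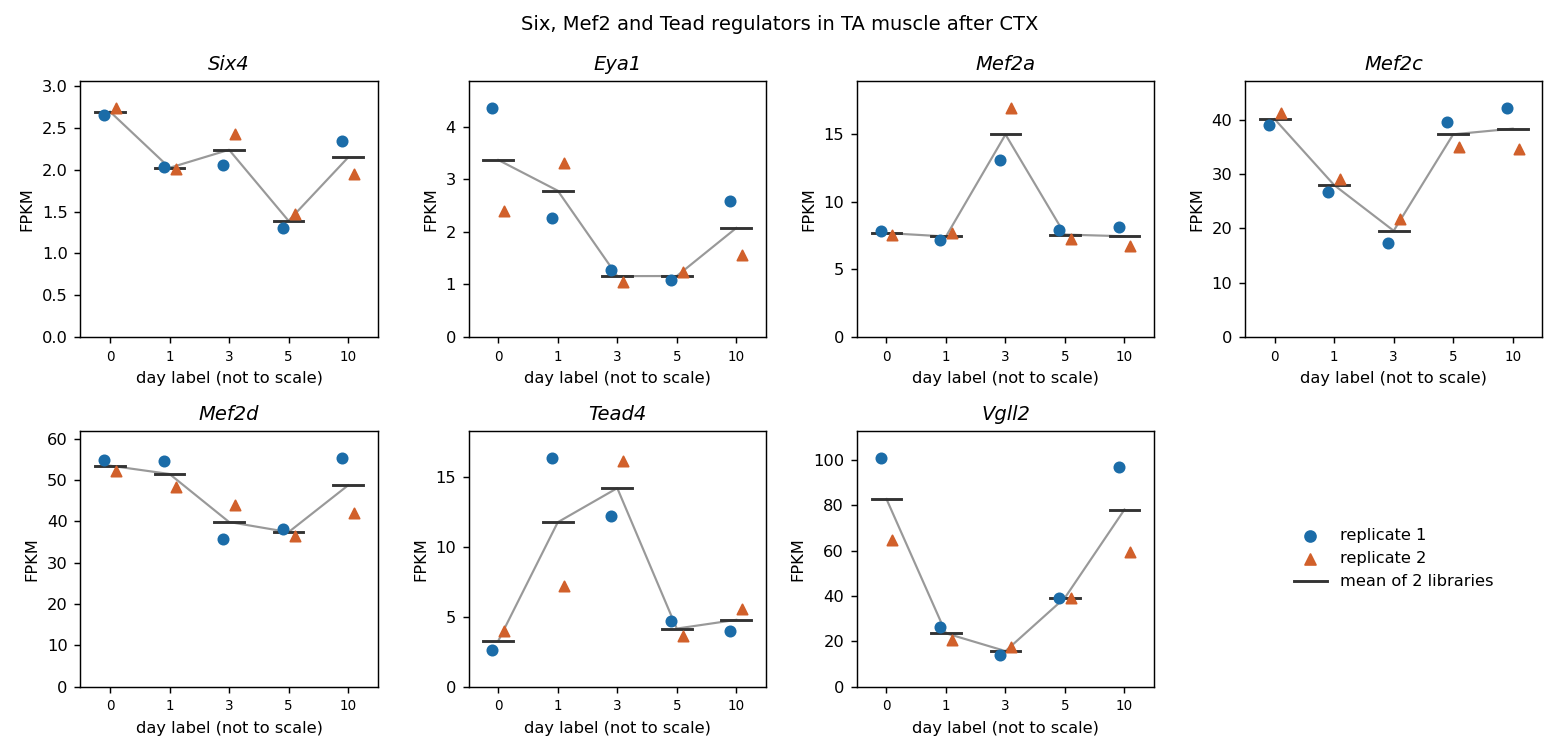
FPKM of the 7 members in TA muscle by day label after CTX, with 1 point per library (circles, replicate 1; triangles, replicate 2), dark bars at the mean of 2 libraries and a grey line through the means. Mef2a and Tead4 have their highest mean on day 3, and Mef2c and Vgll2 their lowest.

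Six4 (chromosome 12, 73099609 to 73113456, minus strand, GRCm38) encodes a homeodomain factor. It stood at 2.65 and 2.73 FPKM on day 0, 2.03 and 2.01 on day 1, 2.05 and 2.42 on day 3, 1.31 and 1.47 on day 5, then 2.34 and 1.95 on day 10. The day 5 libraries lay below all others, and the day 0 libraries above all others. Against day 0, the level on day 5 was lower by a log2 fold change of -0.91 (SE 0.16, adjusted p = 0.0142), and it also fell from day 3 to day 5 (-0.65, SE 0.16, adjusted p = 0.0415).

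Eya1 (chromosome 1, 14168954 to 14310235, minus strand) encodes an EYA cofactor of Six4. It stood at 4.35 and 2.39 FPKM on day 0, 2.26 and 3.30 on day 1, 1.27 and 1.04 on day 3, 1.09 and 1.23 on day 5, then 2.59 and 1.55 on day 10. The 4 libraries of days 3 and 5 lay below the other 6. The fall from day 0 was -1.41 (SE 0.35, adjusted p = 0.0122) on day 3 and -1.40 (SE 0.35, adjusted p = 0.0271) on day 5. Of the summed FPKM of Eya1 to Eya4, Eya1 made up 22.7% to 37.7% on day 0 and 9.68% to 11.9% on day 3, while the sum itself spanned 10.5 to 11.5 FPKM on day 0 and 10.7 to 10.8 on day 3. Eya2 rose on day 3 (1.14, SE 0.41, adjusted p = 0.0494) from 0.244 and 0.506 FPKM to 0.906 and 0.901.

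The 3 Mef2 members took different courses. Mef2a (chromosome 7, 67231163 to 67372858, minus strand) stood at 7.82 and 7.54 FPKM on day 0 and 7.19 and 7.67 on day 1, reached 13.0 and 16.9 on day 3, and stood at 7.92 and 7.22 on day 5 and 8.14 and 6.75 on day 10. Both day 3 libraries lay above the other 8, which overlapped each other. The rise was 0.94 (SE 0.16, adjusted p = 0.00278) against day 0 and 0.99 (SE 0.16, adjusted p = 0.00569) against day 1. The fall from day 3 was -0.96 (SE 0.16, adjusted p = 0.0129) by day 5 and -0.99 (SE 0.16, adjusted p = 0.00339) by day 10. Of the exon bases of Mef2a, 2.06% overlap Lysmd4 on the other strand, and whether counting used strand is not given in the sources used here.

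Mef2c (chromosome 13, 83504034 to 83667080, plus strand), which fibres need to keep their sarcomeres intact, moved the other way. It stood at 39.0 and 41.3 FPKM on day 0, 26.8 and 29.2 on day 1, 17.4 and 21.8 on day 3, 39.7 and 35.0 on day 5, then 42.1 and 34.7 on day 10. Days 0, 5 and 10 overlapped, day 1 lay below them and day 3 lay below day 1. The fall was -1.04 (SE 0.16, adjusted p = 0.0017) from day 0 to day 3 and -0.52 (SE 0.16, adjusted p = 0.0422) from day 1 to day 3, and the rise was 0.93 (SE 0.16, adjusted p = 0.0132) from day 3 to day 5. The Mef2c to Mef2a ratio of FPKM was 4.99 to 5.47 on day 0, 1.29 to 1.33 on day 3 and 4.85 to 5.01 on day 5.

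Mef2d (chromosome 3, 88142372 to 88172086, plus strand) was the Mef2 gene with the highest level in 9 of the 10 libraries and had no called change. It stood at 54.8 and 52.0 FPKM on day 0, 54.5 and 48.3 on day 1, 35.7 and 44.0 on day 3, 38.2 and 36.5 on day 5, then 55.3 and 42.1 on day 10. The libraries of days 3 and 5 lay below those of days 0 and 1, but the difference from day 0 did not pass the test on day 3 (-0.43, SE 0.17, adjusted p = 0.0681) or day 5 (-0.51, SE 0.17, adjusted p = 0.06). Of its exon bases, 8.87% overlap 1700113A16Rik on the other strand.

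As shares of the summed FPKM of these 3 Mef2 genes, Mef2a made up 7.48% to 7.69% on day 0 and 19.7% to 20.4% on day 3. Mef2c made up 38.4% to 40.9% on day 0 and 26.3% on day 3. Mef2d kept to between 44.5% and 61.6% over all muscle libraries.

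Windows of 250 bases before to 50 bases after a transcript start (RefSeq, GRCm38.p6) were at hand for 5 members, with 8 windows in all. They were searched on both strands for 4 motifs, of which the E-box is not a site of these factor families. The MEF2 site occurred in 3.16% of all 32544 windows, the MEF3 core TCAGGTT in 4.07%, the MCAT element CATTCC in 14.6% and the E-box CANNTG in 72.3%. The matches shown here are those in the windows of members that moved on some day, each in 30 bases read 5′ to 3′ on the strand of the gene, with the match in capitals. They are letter matches and were not tested for binding.

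Mef2a, MEF2 site starting at -2 (chr7:67372841-67372870, minus strand): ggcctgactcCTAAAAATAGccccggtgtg

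Six4, MEF3 core on the opposite strand, starting at -97 (chr12:73113324-73113353, minus strand): ggcctgggggaAACCTGAtcggccagatcc

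Mef2c, MCAT element on the opposite strand, starting at -75 (chr13:83503947-83503976, plus strand): tttcattttttaGGAATGattttggataga

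Mef2c, MEF3 core on the opposite strand, starting at -248 (chr13:83503784-83503813, plus strand): atAACCTGAaatgaagcaagtgtgtgctat

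Vgll2, E-box starting at -246 (chr10:52022252-52022281, plus strand): gtccCACGTGgaaacgagggaagaaggaaa

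The same Mef2c window also holds E-boxes at -234 and -100, a further Mef2c window holds an E-box at -245, and the window of Mef2d holds none of the 4 motifs. Eya1 and Tead4 had no window.

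Tead4 (chromosome 6, 128224288 to 128300823, minus strand) encodes a TEAD factor of activated myoblasts. It stood at 2.59 and 3.95 FPKM on day 0, 16.3 and 7.17 on day 1, 12.2 and 16.1 on day 3, 4.71 and 3.59 on day 5, then 3.97 and 5.57 on day 10. All 4 libraries of days 1 and 3 lay above the other 6, and the day 1 replicates differed by more than those of any other day. The rise was 2.10 (SE 0.40, adjusted p = 0.00414) on day 3 and 1.73 (SE 0.40, adjusted p = 0.0486) on day 1. From day 3 the level fell by day 5 (-1.75, SE 0.40, adjusted p = 0.0313) and was lower on day 10 (-1.56, SE 0.40, adjusted p = 0.0189).

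Tead1, the TEAD gene with the highest level in resting muscle, fell from 19.7 and 21.0 FPKM on day 0 to 9.83 and 8.28 on day 3 (-1.16, SE 0.14, adjusted p = 0.000689). The Tead4 to Tead1 ratio of FPKM was 0.131 to 0.188 on day 0, 0.537 to 1.21 on day 1, 1.24 to 1.95 on day 3 and 0.204 to 0.324 on day 5. Tead4 thus made up 9.61% to 13.3% of the summed FPKM of Tead1 to Tead4 on day 0 and 41.2% to 51.6% on day 3, while the sum spanned 26.9 to 29.8 and 29.7 to 31.3 FPKM.

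**Figure D2:**
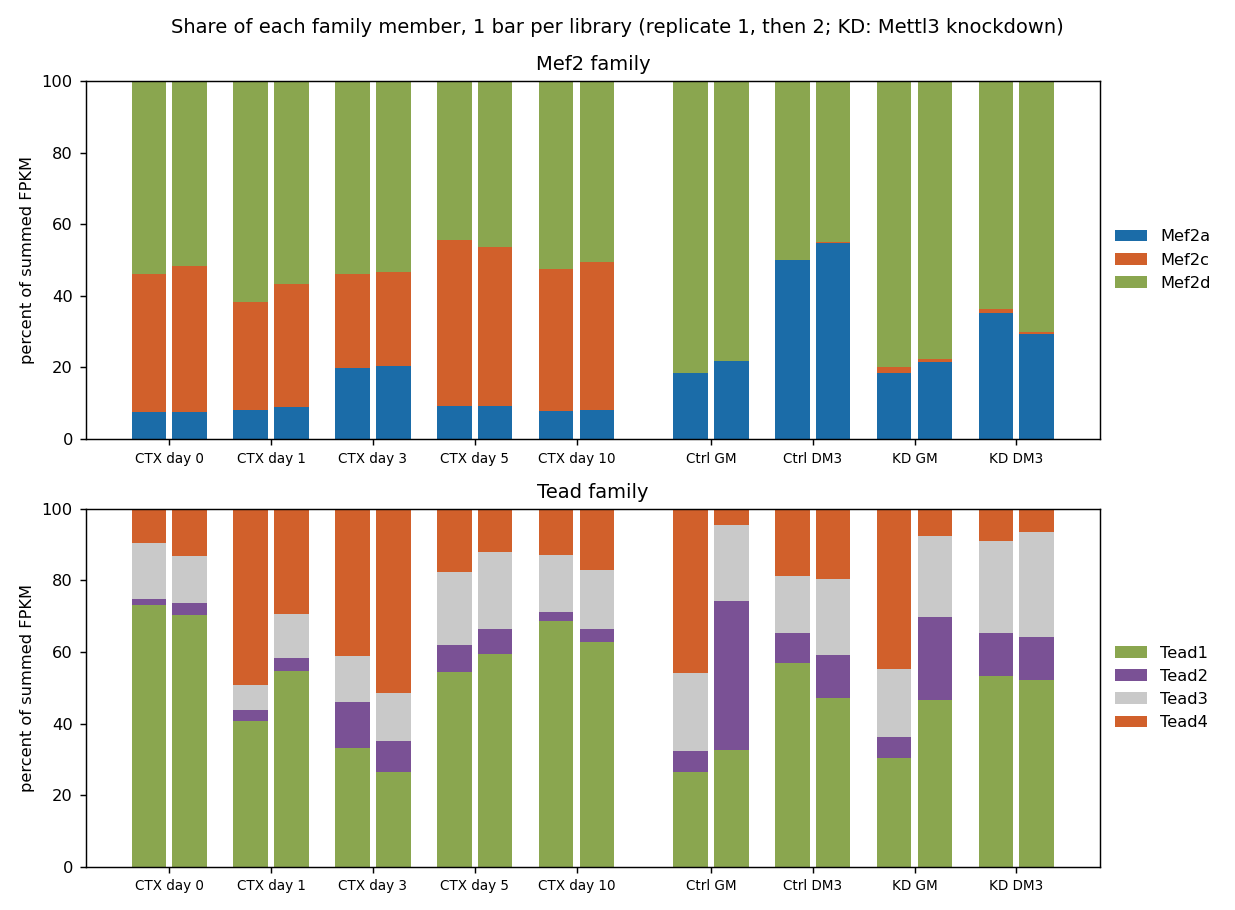
Percent of the summed FPKM of the Mef2 genes (upper panel) and of Tead1 to Tead4 (lower panel), with 1 bar per library. On CTX day 3 the shares of Mef2a (19.7% to 20.4%) and Tead4 (41.2% to 51.6%) exceed those of day 0, and in GM the Tead4 share differs between replicates 1 and 2 of both C2C12 lines.

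Vgll2 (chromosome 10, 52022502 to 52028471, plus strand), the muscle cofactor of TEAD proteins, had the widest swing downwards. It stood at 101 and 64.7 FPKM on day 0, 26.5 and 20.6 on day 1, 13.9 and 17.5 on day 3, 39.2 and 39.3 on day 5, then 96.7 and 59.5 on day 10. The libraries of days 1, 3 and 5 lay in that order of level as day 5 over day 1 over day 3, with no overlap, and all lay below days 0 and 10, which overlapped. The fall from day 0 was -1.79 (SE 0.29, adjusted p = 0.0261) on day 1, -2.36 (SE 0.29, adjusted p = 0.000725) on day 3 and -1.04 (SE 0.29, adjusted p = 0.0374) on day 5. From day 3 it rose by 1.33 (SE 0.29, adjusted p = 0.0272) by day 5 and by 2.27 (SE 0.29, adjusted p = 0.00131) by day 10. Vgll3 rose on day 3 (2.27, SE 0.28, adjusted p = 0.000782) from 0.350 and 0.580 FPKM to 2.30 and 2.85, so the Vgll2 to Vgll3 ratio of FPKM went from 112 to 288 on day 0 down to 6.05 to 6.14 on day 3.

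On day 1, 2 of 7 members were called beside 6% of all genes. Both calls fail when the limma fit takes Xist expression as a term (Tead4 2.13, adjusted p = 0.423, and Vgll2 -1.46, adjusted p = 0.431). Only the day 3 libraries differ in Xist within a day, so that term is set by them alone. It cannot separate day 0 from day 1 or day 5, and no conclusion is drawn from calls lost with it. With 1 library left out, the Tead4 call on day 1 is also lost in 9 of 10 fits (adjusted p = 0.0567 to 0.236), all but that without day 1 replicate 2. The Vgll2 call on day 1 is lost in 6 of 10 (adjusted p = 0.0506 to 0.138), without day 0 replicate 1, day 1 replicate 1 or any 1 library of days 3 and 5. On day 5, 3 of 7 were called beside 25.5%, all of them lower, and 0 remain with the Xist term by limma. On day 10, 0 of 7 differed from day 0 by the limma test (0 also at an unadjusted p under 0.05) beside 0.00597% of all genes, and the 95% intervals of the log2 difference spanned -1.46 to 1.47 over the 7 members, the widest being those of Eya1 (-1.46 to 0.15) and Tead4 (-0.39 to 1.47). From day 1 to day 3, 3 of 7 were called beside 31.1%, with Mef2a up and Mef2c and Eya1 (-1.18, SE 0.35, adjusted p = 0.0373) down. From day 3 to day 5, 5 of 7 were called beside 12.7%, and from day 3 to day 10, 4 of 7 beside 37.9%. Comparisons that share day 0 or day 3 libraries are not independent of each other.

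The calls of Mef2a, Mef2c, Tead4 and Vgll2 on day 3 against day 0 held with each of the 10 libraries left out in turn. That of Eya1 is lost without day 0 replicate 1 or day 3 replicate 2 (adjusted p = 0.0702 to 0.0775). The calls on day 5 against day 0 are lost in 3 of 10 fits for Six4 and Eya1, without day 0 replicate 1 or either day 5 library, and in 5 of 10 for Vgll2, where either day 3 library is added to these. From day 1 to day 3, the Eya1 call is lost in 6 of 10 fits, when any 1 library of days 1, 3 or 5 is left out, and that of Mef2c in 8 of 10, when any 1 library other than those of day 10 is. From day 3 to day 5, the calls of Mef2c, Tead4 and Vgll2 are lost when any 1 of the 4 libraries compared is left out, that of Six4 also without either day 0 library, and that of Mef2a without day 3 replicate 2 or either day 5 library. From day 3 to day 10, the Tead4 call is lost without day 3 replicate 2 or day 10 replicate 1. Without day 3 replicate 1, the remaining day 3 library expressed Xist as both day 0 libraries did, and the log2 fold changes were 1.13 for Mef2a, -0.88 for Mef2c, 2.30 for Tead4 and -2.20 for Vgll2. The myofibre and macrophage marker levels moved on the same day as these members. On day 3 against day 0, 4 of 5 myoblast markers and 1 of 5 fibroadipogenic progenitor markers were called higher, beside 24.5% of all genes. Of the endothelial markers, 3 of 6 were called lower, and of the Schwann cell markers 1 of 4, beside 24.3% of all genes. Of the 4 smooth muscle and pericyte markers, 2 were called higher and 1 lower. The part of these marker changes in the result was not tested.

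**Figure D3:**
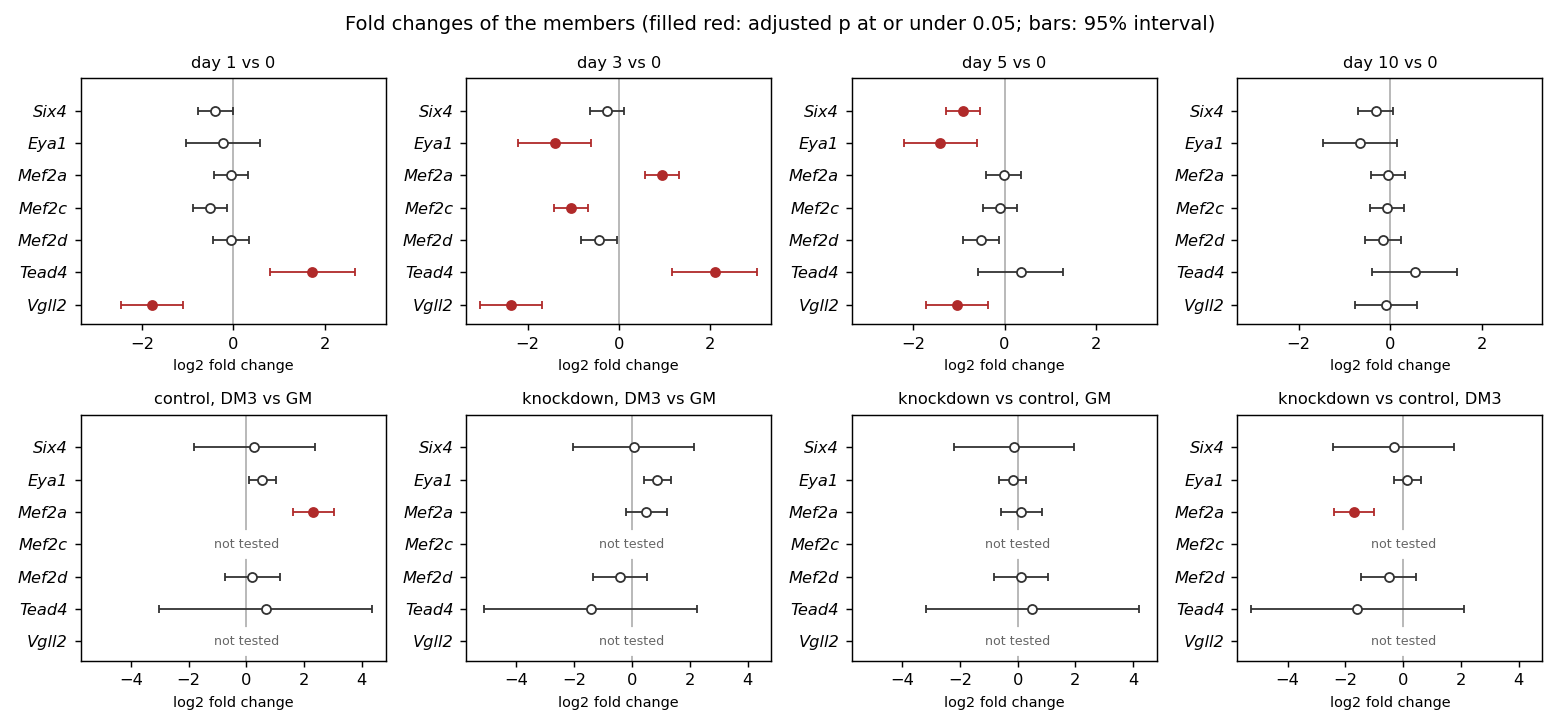
Log2 fold changes of the 7 members with 95% intervals from limma, for 4 days against day 0 in muscle (upper row) and 4 comparisons in C2C12 cells (lower row); filled red points have an adjusted p of at most 0.05. On day 3, 5 members are called, on day 10 none, and in C2C12 only Mef2a is called in the comparisons shown.

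Relatives, cofactors and targets of the members were read from fixed lists on day 3 against day 0. Of the relatives and cofactors tested, 12 of 24 were called, beside 48.8% of all genes (24.5% higher and 24.3% lower). Their share called is therefore not a result about these lists. Among the relatives of Six4, Six2 fell (-1.66, adjusted p = 0.0272). Among MEF2 cofactors and repressors, 1 of 10 rose and 3 fell. The kinase gene Mapk7, which encodes the MEF2 activator ERK5, rose from 1.55 and 1.76 FPKM to 4.96 and 4.60 (1.48, SE 0.16, adjusted p = 0.000522), and the MEF2 repressor Hdac4 fell from 3.16 and 3.50 to 1.43 and 0.950 (-1.44, SE 0.22, adjusted p = 0.00184). Among TEAD and VGLL relatives and coactivators, 3 of 7 rose and 2 fell, among them the coactivator Yap1 (-0.66, SE 0.16, adjusted p = 0.0124).

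Among known MEF2 targets, 2 of 11 rose and 6 fell on day 3, beside 24.5% of all genes called higher and 24.3% lower. Their median was -0.93 against 0.01 over all genes. Myog, the gene of myogenin, rose from 7.73 and 11.0 FPKM to 262 and 234 (4.73, SE 0.39, adjusted p = 0.000285), while the fibre genes Ckm (-2.40), Myom1 (-2.02) and Smyd1 (-1.17) fell. By day 10, 7 of these 11 had risen from day 3 and 1 had fallen, with a median of 1.01. Of all genes, 19.1% were called higher and 18.8% lower in that comparison. Among known targets of Six4 and its relatives, 2 of 5 rose (Myog and Myod1, 2.28) and 2 fell (Ckm and Aldoa, -2.20). Of the known TEAD targets, 2 of 5 rose and 3 did not pass: Ankrd1 went from 11.1 and 15.9 FPKM to 97.4 and 143 (3.14, SE 0.58, adjusted p = 0.00356), and Axl from 3.08 and 5.62 to 25.2 and 29.7 (2.69, SE 0.44, adjusted p = 0.00232). Axl is also expressed by macrophages, whose markers rose on that day.

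In C2C12 cells, Mef2a was the only member called in the limma fit of all groups together, and its calls did not hold with each library left out. It stood at 6.53 and 3.94 FPKM in control cells in GM and at 28.1 and 23.7 on DM3, and in knockdown cells at 6.30 and 4.89 in GM and 8.77 and 7.05 on DM3. Both control DM3 libraries lay above the other 6, and the knockdown DM3 libraries lay above those of GM by less. In control cells Mef2a rose on differentiation (2.32, SE 0.29, adjusted p = 0.0317), the only call among the 5 members tested there, beside 1.14% of the 13824 genes tested. On DM3 it was lower in knockdown than in control cells (-1.70, SE 0.29, adjusted p = 0.048), again 1 call of 5, beside 1.98% of all genes. In knockdown cells the difference between DM3 and GM was 0.49 (SE 0.29, adjusted p = 0.597), and 0 of 5 members were called by limma (1 at an unadjusted p under 0.05, Eya1) beside 0.0289%. In GM the knockdown differed from control by 0.13 (SE 0.29, adjusted p = 0.912), with 0 of 5 members called by limma (0 at an unadjusted p under 0.05) beside 0% of all genes.

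The test of the difference itself, the knockdown effect on DM3 less that in GM, gave -1.83 for Mef2a (SE 0.41, unadjusted p = 0.0038, adjusted p = 0.312, limma), which did not pass, and 0 of 5 members were called (1 at an unadjusted p under 0.05, Mef2a) beside 0% of all genes. Replicate numbers pair the C2C12 libraries, and with the replicate number as a block the all-gene calls rise from 158 to 411 for differentiation in control cells and from 274 to 505 for knockdown on DM3. The adjusted p of Mef2a is then 0.0118 and 0.0182, and that of the difference of effects 0.18. The Mef2a call on differentiation is lost without any 1 of the DM3 or knockdown GM libraries, and the call on DM3 likewise. Over all alternatives tried, the log2 fold change itself spanned 1.96 to 2.68 for differentiation and -1.86 to -1.54 for knockdown on DM3.

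**Figure D4:**
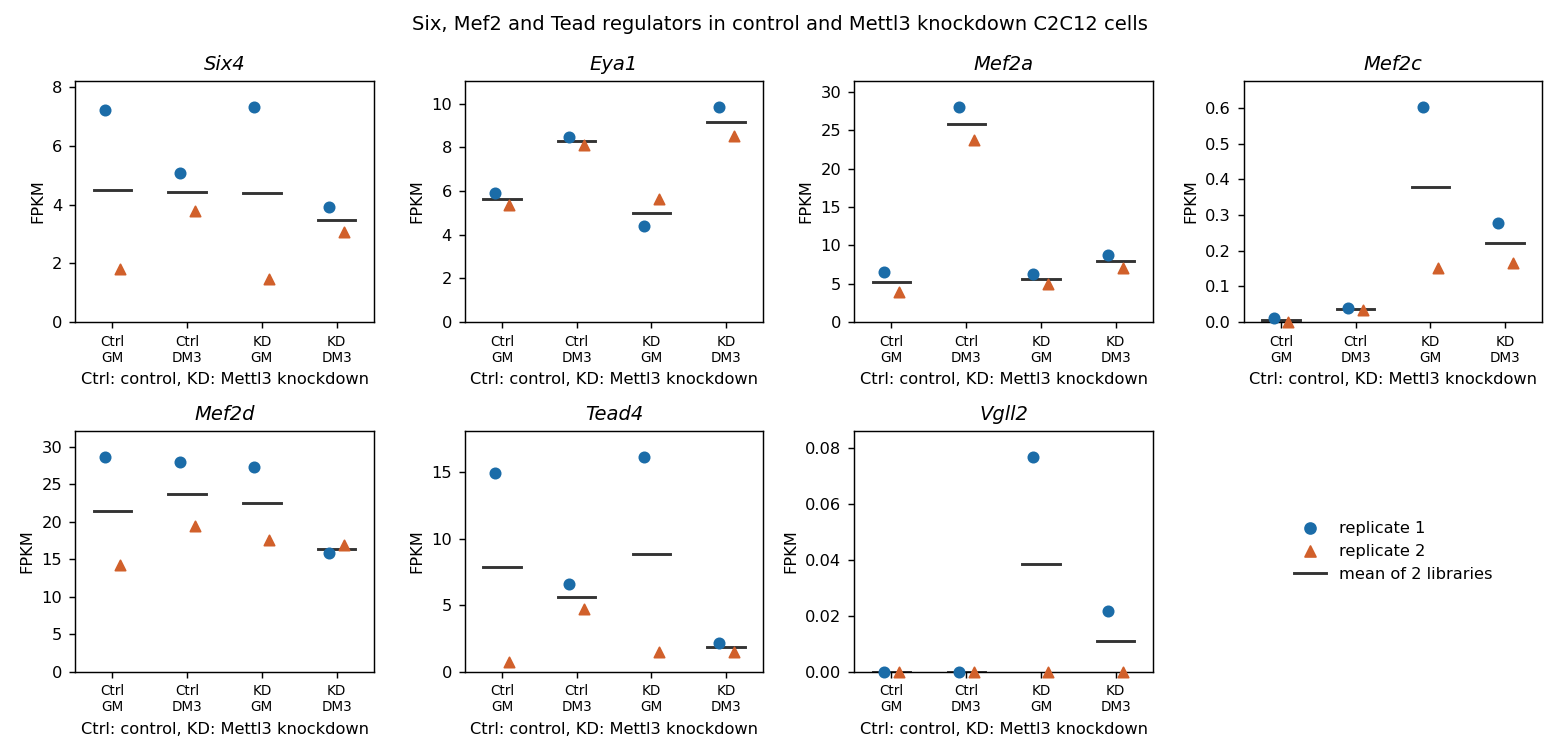
FPKM of the 7 members in control (Ctrl) and Mettl3 knockdown (KD) C2C12 cells, with 1 point per library (circles, replicate 1; triangles, replicate 2) and bars at the mean of 2 libraries. Mef2a reaches 23.7 and 28.1 FPKM in control DM3 and at most 8.77 elsewhere, and Six4 and Tead4 split by replicate in GM.

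Mef2d stood at 28.7 and 14.2 FPKM in control GM, 27.9 and 19.4 in control DM3, 27.3 and 17.6 in knockdown GM and 15.9 and 16.9 in knockdown DM3. The last group lay below the control DM3 libraries, but the difference did not pass the test (-0.50, SE 0.39, adjusted p = 0.612; 95% interval -1.45 to 0.44). Mef2a made up 50.1% to 54.9% of the summed FPKM of Mef2a, Mef2c and Mef2d in control DM3, 29.2% to 35.2% in knockdown DM3 and 18.4% to 21.7% in the GM libraries of both lines, and Mef2d made up nearly all of the rest.

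Mef2c, which stood at 17.4 to 42.1 FPKM in muscle, was close to the lower limit in C2C12 and was not tested. It stood at 0.0120 and 0 FPKM in control GM, about 6 and 0 reads, and at 0.0394 and 0.0344 in control DM3, about 17 and 9 reads. In knockdown cells it stood at 0.603 and 0.152 in GM, about 299 and 44 reads, and at 0.279 and 0.165 on DM3, about 122 and 38 reads. All 4 knockdown libraries lay above all 4 control libraries. Without the filter on low values, an alternative chosen after seeing the data, limma gave 1.99 (SE 0.52, adjusted p = 0.464) in GM and 1.21 (SE 0.52, adjusted p = 0.39) on DM3, values that depend on the pseudocount and did not pass.

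Eya1 stood at 5.89 and 5.34 FPKM in control GM, 8.49 and 8.11 in control DM3, 4.38 and 5.62 in knockdown GM and 9.86 and 8.50 in knockdown DM3. The DM3 libraries lay above the GM libraries in both lines, by 0.56 (SE 0.19, adjusted p = 0.22) in control and 0.87 (SE 0.19, adjusted p = 0.139) in knockdown cells, and neither difference passed. The knockdown DM3 libraries lay just above those of the control (0.14, 95% interval -0.33 to 0.61).

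Six4 and Tead4 followed the replicate split of GM. Six4 stood at 7.23 and 1.79 FPKM in control GM, 5.09 and 3.77 in control DM3, 7.33 and 1.47 in knockdown GM and 3.90 and 3.07 in knockdown DM3. Tead4 stood at 14.9 and 0.748 FPKM in control GM, 6.60 and 4.68 in control DM3, 16.2 and 1.50 in knockdown GM and 2.15 and 1.48 in knockdown DM3. Replicate 1 was high in GM of both lines, as Myog was (11.1 against 2.70 FPKM in control, 12.7 against 0.182 in knockdown), and the state of these cultures is not given in the sources used here.

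On DM3, where replicates lay close, Tead4 was lower in knockdown than in control cells with no overlap (-1.59, SE 1.52, adjusted p = 0.694), and this difference did not pass in the fit of all 8 libraries. The 95% interval was -5.26 to 2.09. Fitted on the 4 DM3 libraries alone, which leaves out the split GM libraries, the same difference had an adjusted p of 0.016, in a fit that called 21.6% of all 13079 genes tested. With GM held to replicate 2 in both lines, an alternative chosen after seeing the data, Tead4 rose on differentiation of control cells by 2.74 (adjusted p = 0.00778) and Six4 by 1.24 (adjusted p = 0.0217), beside 46.1% of all genes called. With replicate 1, Tead4 of the knockdown line fell by 3.11 (adjusted p = 0.00982), beside 10.5% of all genes called. In control cells, the Tead4 level of the DM3 libraries (6.60 and 4.68 FPKM) lay below GM replicate 1 (14.9) and above GM replicate 2 (0.748). In knockdown cells, the DM3 libraries (2.15 and 1.48) lay below GM replicate 1 (16.2), and GM replicate 2 (1.50) lay between them. The direction for Tead4 in control cells thus turned on which GM library stood for GM.

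Vgll2, among the highest of the members in muscle, was listed at 0 in 6 of 8 C2C12 libraries and reached at most 0.0768 FPKM, about 4 reads. A listed 0 allows up to 3 reads, or 0.0572 to 0.188 FPKM by library, counting error only. Of the other VGLL genes, Vgll1 was listed at 0 in all 8 libraries, and Vgll3 and Vgll4 passed the filter, as did the TEAD coactivators Yap1 and Wwtr1, the gene of TAZ. Vgll3 stood at 13.5 and 11.7 FPKM in control DM3 and 45.6 and 36.6 in knockdown DM3 (1.69, SE 0.49, adjusted p = 0.142), and the libraries did not overlap but the difference did not pass.

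The lists in C2C12 gave few calls. Of all genes, 1.14% were called on differentiation of control cells and 1.98% for knockdown on DM3. On differentiation of control cells, 0 of 10 known MEF2 targets tested were called by limma (6 at an unadjusted p under 0.05), with a median of 2.83 against -0.02 over all genes. For knockdown against control on DM3, 1 of 10 was called lower, with a median of -4.69 against -0.05. The called gene, Ckm, stood at 5.65 and 6.33 FPKM in control and 0.0739 and 0.0701 in knockdown DM3 (-5.14, SE 0.54, adjusted p = 0.0215). Myog stood at 89.1 and 83.3 and at 3.50 and 2.28 FPKM (-4.88, SE 1.66, adjusted p = 0.197), with no overlap but no call. Among known targets of Six4 and its relatives, Myod1 rose on differentiation (3.55, SE 0.41, adjusted p = 0.026) and was lower in the knockdown on DM3 (-2.80, SE 0.41, adjusted p = 0.0337). Of the known TEAD targets, 1 of 6 rose on differentiation, Ankrd1 (2.21, SE 0.20, adjusted p = 0.0206), and 0 of 6 were called for knockdown on DM3 by limma, with 2 at an unadjusted p under 0.05. Of the relatives and cofactors of the members, 0 of 20 tested were called in either comparison by limma, with 3 at an unadjusted p under 0.05 on differentiation and 1 for the knockdown. The summed myofibre marker level was 666 to 672 FPKM in control and 17.4 to 22.2 in knockdown DM3, and its part in the Mef2a difference was not tested. For its knockdown cells after induction, the paper reports the other direction, with more MyHC protein, more fusion and higher RT-qPCR levels of fusion genes. Those are other measures than FPKM, and why the directions differ was not tested.

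**Figure D5:**
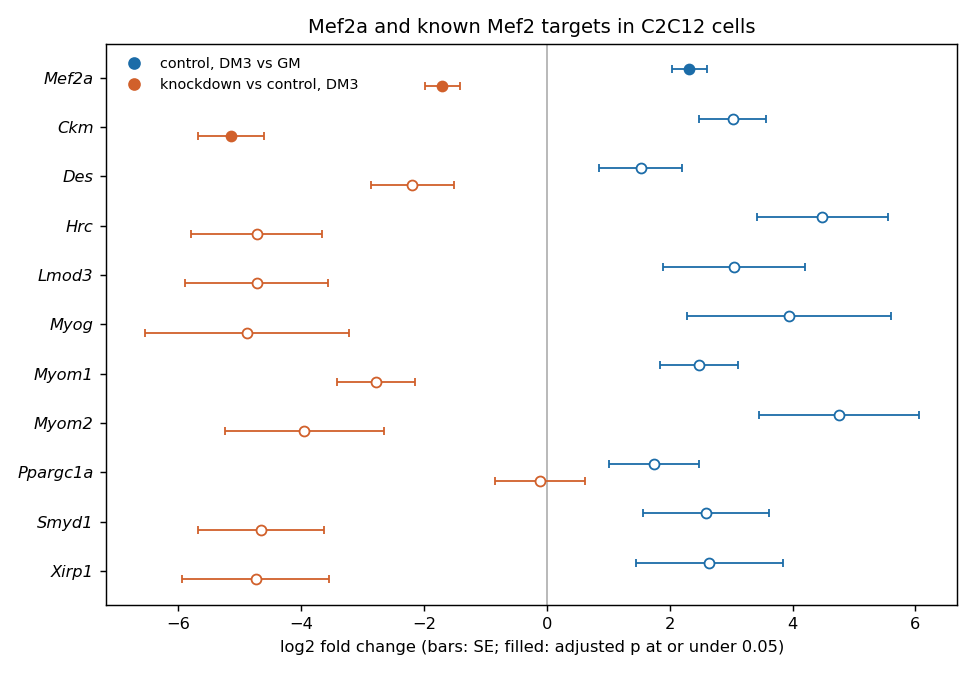
Log2 fold changes with SE of Mef2a and the 10 known Mef2 targets tested in C2C12 cells, for control DM3 against GM (blue) and knockdown against control on DM3 (orange); filled points have an adjusted p of at most 0.05. Mef2a is called in both comparisons, and of the targets only Ckm is called, in the knockdown comparison.

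The order of levels also differed between the tables, within which alone levels can be compared. In muscle on day 0, Vgll2, Mef2d and Mef2c had the highest FPKM of the members, and in control GM cells Mef2d had. The genes whose centred log2 levels lay closest to a member over the 18 libraries, by root mean square difference, were Tmem123 (0.29), Zeb1 (0.30) and Purb (0.31) for Mef2a, against a median of 0.83 over 12186 genes. They were Kdm7a (0.25), Arfgef2 and Tmem106b for Six4, Mbnl1 (0.20), Zfp91 and Ccdc91 for Eya1, and Atp6v0a1 (0.14), Atg2b and Traf3ip1 for Mef2d. They were Hsf2bp (0.48), Lpin3 and Ampd3 for Tead4, Add3 (0.38), Ehbp1 and Ackr4 for Mef2c, and Kyat1 (0.36), Fam131b and Cs for Vgll2, of which the last 2 members lie near 0 in C2C12. Each table was centred on its own mean, and the libraries of a group share their condition.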

How the data were processed

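RNA-seq libraries of TA muscle and of C2C12 cells were made by the authors with a SMARTER mRNA kit, aligned to GRCm38 with HISAT2 and counted per gene with featureCounts, and the deposited FPKM values were made with the fpkm function of DESeq2 (versions not given in the sources used here). The submitters' processing notes name the builds GRCm38 and mm10. The tables were scaled separately and carry different gene symbols in places, so no test crosses them. The closest genes were found over both tables after each was centred on its own mean. Levels of a member named for both tables are set side by side without a test. Groups came from the labels. A further 8 libraries of Mettl3 overexpression or GFP control cells were not analysed here.

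Gene lengths of GENCODE M21 matched 53360 of 53465 and 55227 of 55487 genes. Between 96.65% and 97.66% of low values (at most 10 reads) in the CTX libraries, and between 98.57% and 98.81% in C2C12, were whole multiples of 1 read within 0.02 read, and depth was taken from these steps and used in no test. A read on 1 kb was worth 0.0494 to 0.0817 FPKM in CTX and 0.0315 to 0.104 in C2C12, which limits low values.

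Genes that reached 0.5 FPKM in 2 or more libraries (16753 and 13824) were fitted on log2(FPKM + 0.1) with limma 3.58.1 (lmFit, eBayes with trend, two-sided, all groups of a table together) in R 4.3.3, with Benjamini-Hochberg adjustment over all genes tested and calls at an adjusted p of at most 0.05. An exact permutation test of 2 against 2 libraries cannot go below p = 0.333. The fit was checked on simulated data with a log2 change of 4 given to 200 genes. For CTX day 3 against day 0, it recovered 170 (85%) and called 11 unchanged genes. For knockdown DM3 against GM, it recovered 161 (80.5%) and called 8 unchanged genes. After simulation, 15544 and 13221 genes passed the filter and were tested, changed genes included. Changed genes that did not pass it count as missed. The called changes of members lay between -2.36 and 2.32, so recovery at a log2 change of 4 does not give the power for them. Replicate numbers were checked for pairing by the correlation of deviations from group means. In CTX, 2 of 10 group pairs exceeded 0.1 (-0.019 to 0.21), and in C2C12, 6 of 6 did (0.28 to 0.68). The numbers thus pair the C2C12 libraries by this measure, with no reason given in the labels. Replicate 1 was also the deeper library in each C2C12 group.

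The genes named are the 7 members, at most 4 genes of a list (those with the smallest p in the comparison described), the 3 genes closest in level to each member, Mettl3 and Xist. Members and lists were chosen with earlier results of these data known. Alternatives were other pseudocounts, filters, scalings, fits of only the groups compared, the replicate block, a fold threshold of 2 on the log2 scale, a term for Xist and each library left out. Promoter windows came from RefSeq (GRCm38.p6). Python 3.11.15, pandas 2.3.3, numpy 2.4.6 and matplotlib 3.10.9 were used.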

Additional observations from a re-analysis of the deposited data

Results flagged for a closer look

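Mef2c in the Mettl3 knockdown C2C12 cells lies outside the tests, since it stayed under the filter on low values, but all 4 knockdown libraries (lowest 0.152, highest 0.603 FPKM) lay above all 4 control libraries (0 to 0.0394 FPKM). The signal exceeds the 3 reads that a listed 0 allows, with about 38 to 299 reads in the knockdown libraries against 0 to 17 in the controls.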

How the results depend on the processing

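Over all alternatives tried, no called member changed direction. Of 24 calls of members, 9 held under every other pseudocount, filter, scaling and model that kept all libraries, and 8 of these also with each library left out in turn: Mef2a, Mef2c, Tead4 and Vgll2 on day 3 against day 0, Mef2a on day 3 against day 1, and Mef2a, Mef2c and Vgll2 on day 10 against day 3. Of these 8, only Tead4 and Vgll2 on day 3 against day 0 and Vgll2 on day 10 against day 3 also pass the log2 fold threshold of 2. The cause of the changes below was not tested, except where fewer libraries or genes enter. The Xist term is set by the day 3 libraries alone, so calls lost with it do not test the split by Xist. On day 1 against day 0, 2 members were called, and this became 1 with a pseudocount of 0.01, with no filter, with quantile normalization and with the replicate block, and 0 with only the groups compared, a log2 fold threshold of 2 or the Xist term. On day 3 against day 0 the fold threshold left 2 of 5. On day 5 against day 0, 3 became 1 with no filter, and 0 with the fold threshold or the Xist term. From day 1 to day 3, 3 became 1 with no filter, median-ratio scaling or the Xist term, and 0 with the fold threshold. From day 3 to day 5, 5 became 3 with no filter, and 0 with the fold threshold or the Xist term, and from day 3 to day 10 the fold threshold left 1 of 4. In C2C12, the 1 call on differentiation of control cells became 0 with only the groups compared, and 4 with GM held to replicate 2, beside 46.1% of all genes. The 1 call for knockdown on DM3 became 0 with a pseudocount of 0.01, no filter, median-ratio scaling or the fold threshold, and 2 with only the groups compared (beside 21.6% of all genes, 2828 of 13079, against 274 of 13824) or with GM held to replicate 1 or 2 (20.8% and 20.1%). With GM held to replicate 1, 2 members were called on differentiation of knockdown cells, in place of 0, beside 10.5% of all genes. The lone GM library is then assumed to vary like the other groups.

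With each library left out in turn, the counts of members called ranged from 0 to 2 on day 1, 4 to 6 on day 3, 0 to 4 on day 5 and 0 to 0 on day 10 against day 0. They ranged from 1 to 3 from day 1 to 3, 0 to 5 from day 3 to 5 and 3 to 4 from day 3 to 10. In C2C12 they ranged from 0 to 1 on differentiation of control cells and for knockdown on DM3, and stayed at 0 in the other 3 comparisons. CTX replicate numbers share only a number (2 of 10 correlations over 0.1), and the replicate block moved the day 3 to day 5 count from 5 to 4 and the day 1 to day 3 count from 3 to 2. The replicate block changed no member's call in C2C12, where the numbers pair the libraries. Median-ratio scaling moved the median log2 fold change of all genes on day 3 against day 0 from 0.01 to 0.18 and the share of calls that were higher from 50.2% to 60.0%. That share went from 50.8% to 64.8% on day 5 against day 0, from 46.7% to 59.5% from day 1 to 3 and from 50.5% to 40.5% from day 3 to 10. Depth limits Mef2c and Vgll2 in C2C12.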
